A study of Mus musculus with 9 samples.

Results

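The 2 duodenum libraries labelled vehicle 3 and 1,25D3 and ZK 3 were set against 4 other libraries of the same study, labelled vehicle 1, 1,25D3 1, 1,25D3 and ZK 1 and 1,25D3 3. They are 2 of 9 libraries in all, and the 3 left over carry the number 2 on their labels. Each library came from the duodenum, the first stretch of small intestine, of a 10-week-old male C57BL/6J mouse that was dosed by mouth 6 h earlier with oil vehicle, with 1,25D3 (calcitriol, the active form of vitamin D) or with 1,25D3 together with ZK, an antagonist of the vitamin D receptor VDR. The tissue was taken whole, no mouse carried an altered gene, and poly(A) RNA was sequenced in 50-base single reads to a depth of 22561400 to 41207455 counts per library.

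Both groups were chosen by the likeness of the libraries in these same data, and not by treatment. *Cyp24a1*, which encodes the enzyme that breaks down 1,25D3 and is strongly induced by VDR, put the treatment labels in doubt. Vehicle 3 and 1,25D3 and ZK 3 held 2.47 and 4.05 TMM CPM of it, and the other 4 held 2.70, 2.50, 6.14 and 9.13 TMM CPM, although 2 of these 4 bear the label of 1,25D3 alone. The highest of these 6, 9.13 TMM CPM in 1,25D3 3, was the library just inside the limit of 10 CPM, and the 3 libraries numbered 2 lay far outside it at 7537, 6425 and 7633 TMM CPM. TMM CPM are CPM (reads scaled to a common library size) whose library sizes were adjusted by the trimmed mean of M-values. Below, libraries are called by their labels, "the pair" stands for vehicle 3 and 1,25D3 and ZK 3 in that order, and "the other 4" stands for vehicle 1, 1,25D3 1, 1,25D3 and ZK 1 and 1,25D3 3 in that order. Since likeness over all genes formed both groups, the values below are a description of these 6 libraries, and no test is given for the pair against the other 4.

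The duodenum absorbs calcium through cells that line the villi. Calcium enters them by the channel TRPV6, crosses the cell bound to calbindin-D9k (*S100g*) and leaves by the pump PMCA1 (*Atp2b1*), and VDR, bound to its partner RXR, raises the genes of this route. The same villi carry peptidases, disaccharidases and transporters on their brush border, while stem cells and Paneth cells sit in the crypts and plasma cells that secrete IgA fill the tissue core. A plasma cell clone uses 1 heavy chain V segment and 1 light chain V segment, so that the V segments in an RNA sample describe which clones are in it.

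Genes were kept when they had more than 100 reads in total over the 9 libraries, which left 15002 of 48709. A gene was called apart when every library of the pair lay beyond every library of the other 4 by more than 1.5-fold. By this rule 894 genes were apart upward (5.96%) and 633 were apart downward (4.22%). Counts of list genes apart by TMM below are to be read beside these shares. The median log2 difference of the pair minus the other 4, computed on log2(TMM CPM + 0.5), was 0.89 over the genes apart upward, -0.82 over those apart downward and 0.02 over all genes kept. *Macf1* lay just inside the upward limit at 36.0 and 35.0 TMM CPM in the pair and 23.3, 22.5, 17.6 and 21.3 TMM CPM in the other 4, and *Setd5* just outside it at 46.2 and 46.2 TMM CPM in the pair and 28.7, 30.8, 30.3 and 28.5 TMM CPM in the other 4. Of the genes apart, 334 upward and 153 downward were separated by more than 2-fold. Scaling by total counts in place of TMM shifted the median of all genes by 0.28 on the log2 scale and gave 2454 genes apart upward and 189 downward, so that 92.8% of the genes apart were upward by total counts and 58.5% by TMM. List genes apart by total counts are to be read beside these 2454 and 189 of all 15002 genes. Without the library labelled 1,25D3 and ZK 3, vehicle 3 alone had 1167 genes apart upward and 1021 downward.

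**Figure D1:**
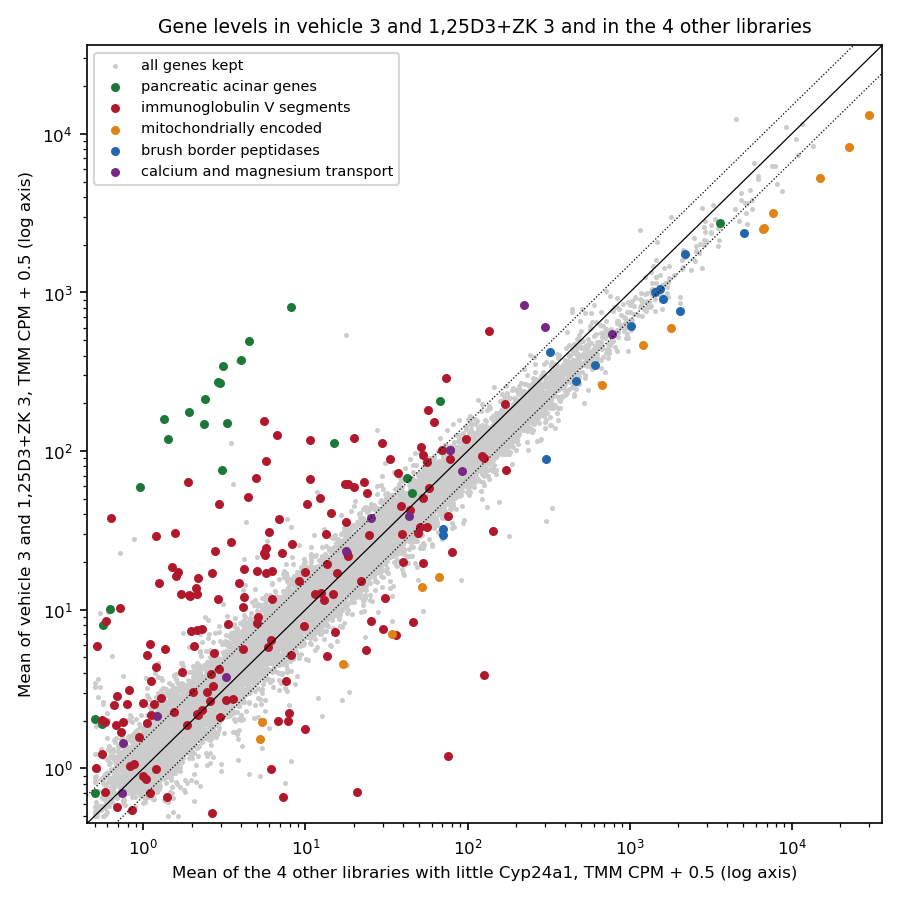
Mean level of each kept gene in the pair (vertical) against its mean in the other 4 libraries (horizontal), both as TMM CPM + 0.5 on log axes; the solid line marks equal levels and the dotted lines a 1.5-fold difference. Pancreatic acinar genes and many immunoglobulin V segments lay far above the line, and the 15 mitochondrially encoded genes of the list lay below it, as did the 9 of 13 brush border peptidases that were apart downward.

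The pair was alike within itself and unlike the other 4. Over 7934 genes with a mean of at least 10 TMM CPM, log2 values of the 2 libraries of the pair correlated at 0.997 (Pearson), the 6 couples within the other 4 at 0.997 to 0.998, and the 8 couples across at 0.938 to 0.947. These correlations run over genes, which are not independent replicates. The mean chi-square per gene between 2 libraries, which is 1 for sampling noise alone, was 4.92 within the pair, 1.84 to 5.61 within the other 4 and 171 to 204 across. Over V segments alone it was 3.55 within the pair, 1.56 to 2.78 within the other 4 and 351 to 512 across. Between the pair and the libraries numbered 2, log2 values correlated at 0.942 to 0.966. The mean chi-square over all genes was 160 to 332 there. Repeat preparations of 1 sample could also exceed sampling noise, and each library was counted as its own sample because its label says so. The likeness ran across the treatment labels: the pair holds a vehicle and a 1,25D3 and ZK label, and the other 4 hold all 3 labels.

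Immunoglobulin V segments were divided in the same way, in both directions. Of 177 V segments kept, 97 were apart upward (54.8%, beside 5.96% of all genes) and 29 downward (16.4%, beside 4.22%). Their levels ranked alike within the pair (Spearman rho over segments 0.997) and within the other 4 (0.993 to 0.995), and less alike across (0.643 to 0.654). Between the pair and the libraries numbered 2 rho was 0.761 to 0.769. The 10 V segments of highest level were the same 10 in both libraries of the pair, while any library of the pair shared 3 of its 10 with any of the other 4. *Igkv10-96*, a kappa chain segment first in rank in both libraries of the pair, stood at 552 and 594 TMM CPM there and at 130.2, 132, 139 and 137 TMM CPM in the other 4. *Igkv15-103*, first or second in rank in each of the other 4, stood at 73.8 and 76.9 TMM CPM in the pair and 167, 171, 181 and 174 TMM CPM in the other 4.

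The pairs of segments with the widest gaps in each direction, among those with a mean of at least 10 TMM CPM, are shown by sequence because a read of 50 bases must tell them from their many relatives. Each line gives the 150 bases at the 3′ end of the annotated coding sequence (GENCODE M21 on GRCm38), and capitals mark a run of 50 bases found in that gene's transcripts alone.
Ighv14-4 (chr12:114176438-114176587, minus strand): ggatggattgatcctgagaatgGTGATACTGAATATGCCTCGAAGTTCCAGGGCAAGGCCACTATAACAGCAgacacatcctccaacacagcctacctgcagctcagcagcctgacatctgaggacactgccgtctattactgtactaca
Ighv3-8 (chr12:114322327-114322476, minus strand): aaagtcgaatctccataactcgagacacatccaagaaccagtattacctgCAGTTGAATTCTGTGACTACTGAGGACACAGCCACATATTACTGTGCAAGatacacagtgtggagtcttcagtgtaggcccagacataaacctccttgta
Ighv1-43 (chr12:114945950-114946099, minus strand): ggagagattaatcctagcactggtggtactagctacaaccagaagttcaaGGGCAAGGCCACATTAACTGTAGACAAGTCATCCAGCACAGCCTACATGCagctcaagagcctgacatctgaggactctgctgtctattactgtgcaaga
Igkv3-9 (chr6:70588628-70588777, plus strand): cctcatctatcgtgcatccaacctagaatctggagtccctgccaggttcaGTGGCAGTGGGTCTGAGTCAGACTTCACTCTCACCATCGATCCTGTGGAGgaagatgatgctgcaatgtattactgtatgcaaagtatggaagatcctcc

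*Ighv14-4* had 1390 and 1793 reads in the pair and 2, 8, 3 and 1 reads in the other 4, or 35.0 and 39.5 TMM CPM in the pair and at most 0.260 TMM CPM in the other 4. *Ighv3-8* stood at 59.8 and 67.0 TMM CPM in the pair and 1.41, 1.27, 1.17 and 1.66 TMM CPM in the other 4. Both heavy chain segments were thus near absent from the other 4 and well covered in the pair. The reverse held for *Ighv1-43*, at 0.176 and 0.242 TMM CPM in the pair (7 and 11 reads) and 19.1, 20.1, 20.8 and 21.6 TMM CPM in the other 4, and for the kappa segment *Igkv3-9*, at 0.478 and 0.925 TMM CPM in the pair and 71.1, 75.7, 75.7 and 79.4 TMM CPM in the other 4. Of all windows of 50 bases along these transcripts, 238 of 302 in *Ighv14-4*, 344 of 345 in *Ighv3-8*, 236 of 302 in *Ighv1-43* and 246 of 310 in *Igkv3-9* occurred in no other annotated gene. The windows run over the transcripts as annotated, and which of them remain in the rearranged transcripts of plasma cells was not examined. The remaining windows are shared with relatives such as *Ighv14-2* or *Igkv3-5*, and the sources do not state how strand was treated in counting, so single segments carry that uncertainty. Summed over all V segments the level was 5420 and 5677 TMM CPM in the pair and 3245 to 3451 TMM CPM in the other 4, with heavy chain segments at 1655 and 1718 TMM CPM in the pair and 489 to 539.8 TMM CPM in the other 4. In the libraries numbered 2, *Ighv14-4* stood at 2.12, 2.07 and 1.60 TMM CPM and *Igkv3-9* at 0.225, 1.72 and 0.354 TMM CPM.

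**Figure D2:**
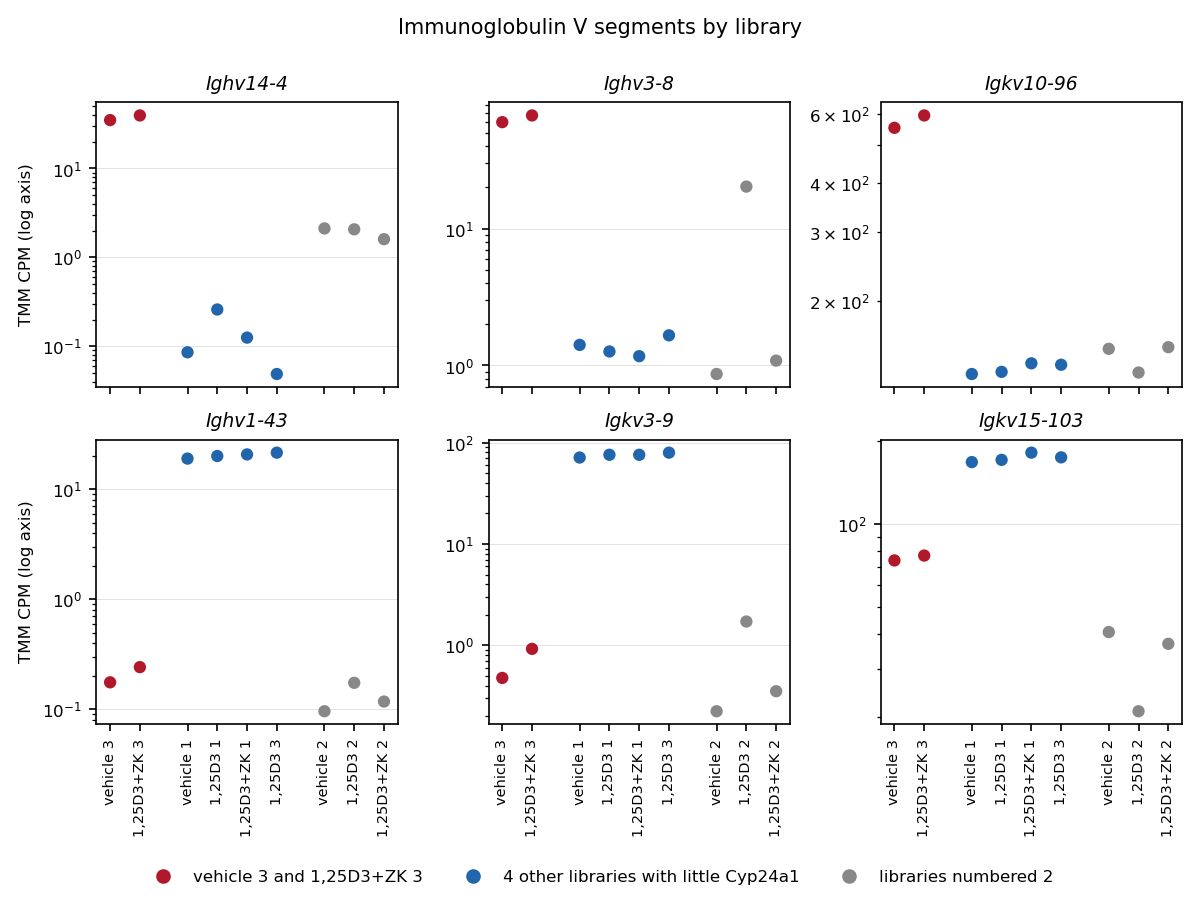
Level of 6 immunoglobulin V segments in each of the 9 libraries, in TMM CPM on a log axis; each point is 1 library. In every panel the 2 points of the pair lay away from the 4 points of the other 4, above them in the upper row and below them in the lower row. Points with few reads were spread on this axis. *Ighv14-4* ranged from 0.0488 to 0.260 TMM CPM in the other 4, and *Igkv3-9* stood at 0.478 and 0.925 TMM CPM in the pair.

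Plasma cell genes other than V segments leaned the same way. *Igha*, which encodes the IgA heavy chain constant region (ENSMUSG00000095079, chr12:113254830-113260236 of GRCm38), stood at 12704 and 12106 TMM CPM in the pair and 4469, 4572, 4516 and 4575 TMM CPM in the other 4, a log2 difference of 1.45. The 2 groups did not overlap, and the nearest libraries differed by 2.65-fold. Of 18 genes on a list for IgA plasma cells 4 (22.2%, beside 5.96% of all genes) were apart upward and 0 downward. The 4 were *Igha*, *Iglc2* (a lambda constant region), *Irf4* (the transcription factor that plasma cells require) and *Pou2af1* (a B cell coactivator). *Irf4* stood at 15.9 and 16.7 TMM CPM in the pair and 7.24, 6.91, 6.05 and 7.08 TMM CPM in the other 4. *Pou2af1* stood at 18.9 and 17.4 TMM CPM in the pair and 9.55, 10.2, 10.0 and 9.71 TMM CPM in the other 4. The 10 list genes that are not immunoglobulin chains, *Jchain* or *Pigr* summed to 466 and 464 TMM CPM in the pair and 392 to 406 TMM CPM in the other 4. In whole tissue, fewer cells of a type and less RNA per cell cannot be told apart. Of 20 genes for T cells and intraepithelial lymphocytes 0 were apart either way, and of 10 genes for MHC class II presentation also 0, with a class II sum of 4621 and 4607 TMM CPM in the pair and 6017 to 6278 TMM CPM in the other 4.

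The calcium transport genes *S100g* and *Atp2b1* were higher in the pair, with *Cyp24a1* low in all 6 libraries. *S100g* (ENSMUSG00000040808, chrX:162961992-162964599) stood at 807 and 862 TMM CPM in the pair and 220.1, 213, 229 and 230.1 TMM CPM in the other 4. The groups were far from overlapping, with 3.51-fold between the nearest libraries and a log2 difference of 1.90. *Atp2b1* (ENSMUSG00000019943, chr10:98914406-99026143) stood at 610.1 and 597 TMM CPM in the pair and 304, 299, 307 and 287 TMM CPM in the other 4, a log2 difference of 1.01. *Trpv6* was barely detected, with 42 and 37 reads in the pair and 8, 13, 0 and 5 reads in the other 4. Of 12 genes measured on a list for calcium and magnesium transport 4 were apart upward (*S100g*, *Atp2b1*, *Trpv6* and the voltage-gated channel gene *Cacna1d*, itself at most 1.70 TMM CPM in any of the 6) and 0 downward, with a median log2 difference of 0.39 beside 0.02 over all genes. The list summed to 2266 and 2268 TMM CPM in the pair and 1551 to 1555 TMM CPM in the other 4.

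Also apart upward were 2 further genes that VDR is known to bind in mouse intestine. *Slc30a10*, a manganese exporter, stood at 135 and 137 TMM CPM in the pair and 76.4, 70.8, 74.6 and 76.1 TMM CPM in the other 4. *Slc37a2*, a sugar phosphate exchanger, stood at 202 and 195 TMM CPM in the pair and 121, 121, 127 and 118 TMM CPM in the other 4, with 1.54-fold between the nearest libraries, close to the limit. *Nkain1*, a further gene with a VDR binding site, overlapped between the groups, at 2.14 and 2.31 TMM CPM in the pair and 1.97, 2.73, 2.17 and 2.39 TMM CPM in the other 4. *Vdr* itself was not apart, at 663 and 663 TMM CPM in the pair and 495, 502, 481 and 498 TMM CPM in the other 4, although the groups did not overlap. Its partner gene *Rxra* stood at 174 and 170.1 TMM CPM in the pair and 212, 218, 213 and 219.7 TMM CPM in the other 4, and *Wbp4*, which encodes a VDR interacting protein, at 15.7 and 15.5 TMM CPM in the pair and 14.0, 12.5, 12.8 and 13.4 TMM CPM in the other 4. Scaled by total counts, *Vdr* was apart upward and the log2 difference of *Rxra* was 0.0025, so neither position held under both scalings. Of 10 genes measured on the list for VDR and its targets 2 (20%, beside 5.96% of all genes) were apart upward and 2 (20%, beside 4.22%) downward. Those downward were *Cyp27a1*, at 34.6 and 35.7 TMM CPM in the pair and 63.9, 68.5, 61.2 and 63.2 TMM CPM in the other 4, and *Cyp2r1*, at 1.21 and 1.23 TMM CPM in the pair and 2.48, 2.30, 2.67 and 2.05 TMM CPM in the other 4, enzymes that hydroxylate vitamin D at carbon 25, and neither was apart by total counts. The libraries numbered 2 held these genes at other levels: *S100g* at 2822, 2142 and 2785 TMM CPM, *Atp2b1* at 751, 714 and 732 TMM CPM, *Slc30a10* at 394, 329.5 and 392 TMM CPM, and *Trpv6* at 314, 245 and 299 TMM CPM.

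**Figure D3:**
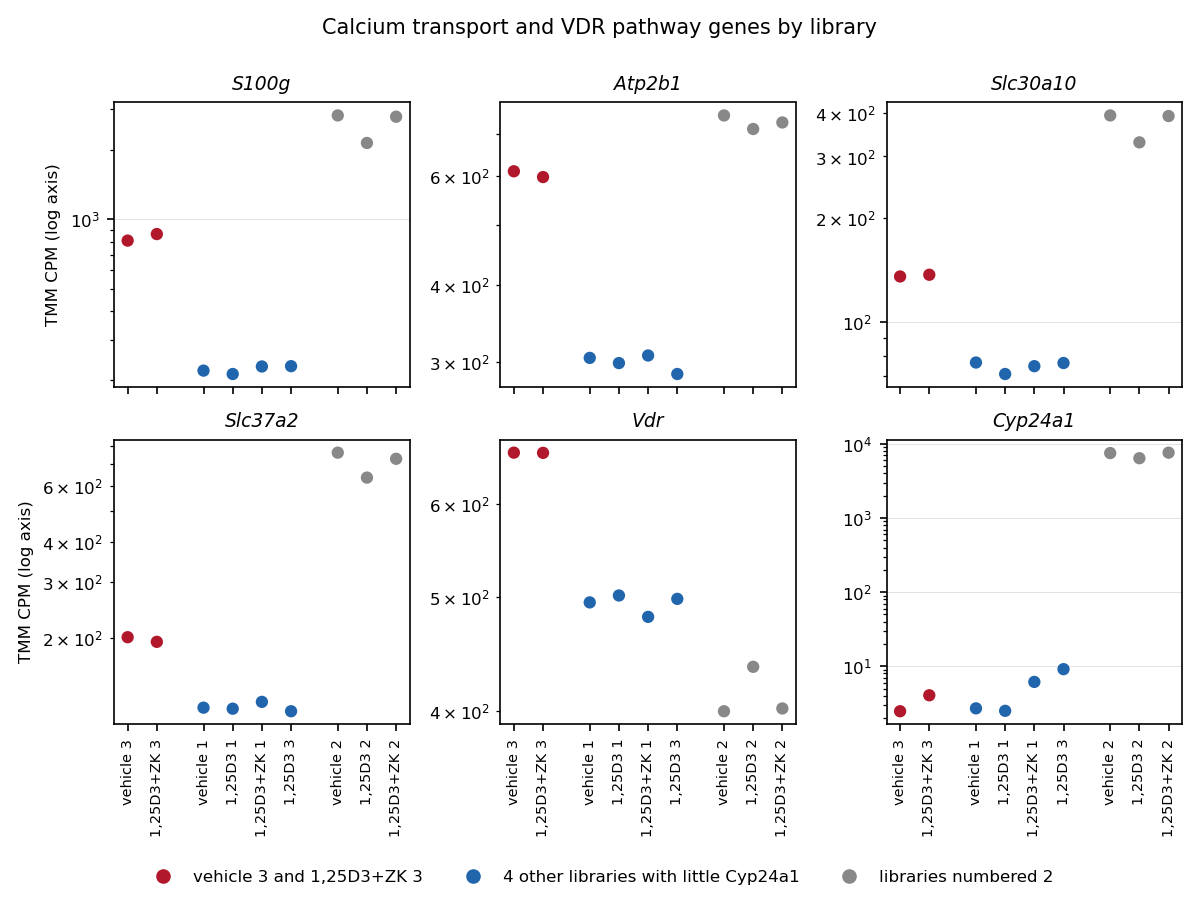
Level of 6 calcium transport and VDR pathway genes in each of the 9 libraries, in TMM CPM on a log axis; each point is 1 library. *S100g*, *Atp2b1*, *Slc30a10* and *Slc37a2* were higher in both libraries of the pair than in any of the other 4, whereas *Cyp24a1* was low in all 6 and at 6425 to 7633 TMM CPM in the libraries numbered 2.

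The 250 bases upstream of the *S100g* start site (RefSeq, GRCm38.p6) are shown because *S100g* had the widest gap among the calcium transport genes; capitals mark the nuclear receptor half-sites AGGTCA and GGTTCA on either strand.
S100g upstream (chrX:162964600-162964849, minus strand): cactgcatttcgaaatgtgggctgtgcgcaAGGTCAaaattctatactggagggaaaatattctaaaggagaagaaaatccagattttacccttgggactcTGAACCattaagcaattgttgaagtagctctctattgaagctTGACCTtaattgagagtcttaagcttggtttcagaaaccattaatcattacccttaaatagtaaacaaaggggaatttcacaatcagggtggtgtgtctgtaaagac

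AGGTCA, searched on both strands with overlapping matches not counted, occurred 2 times in this window and GGTTCA occurred 1 time. Of 32851 promoter windows of this length 14.0% held AGGTCA at least once, 8.85% held GGTTCA and 1.34% held AGGTCA at least 2 times. The *Trpv6* window held AGGTCA 2 times, and the windows of *Atp2b1*, *Slc30a10* and *Slc37a2* held neither motif. None of these windows held a direct repeat of the motifs with 3 bases between them, the spacing of classical vitamin D response elements, which occurred in 5 of the 32851. These matches describe letters in a window and not sites in use.

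Genes of the absorptive brush border were lower in the pair. *Anpep*, which encodes aminopeptidase N (ENSMUSG00000039062, chr7:79821803-79861059), stood at 2423 and 2328 TMM CPM in the pair and 5082, 5051, 5056 and 5062 TMM CPM in the other 4, a log2 difference of -1.09 with 2.08-fold between the nearest libraries. *Ace*, the angiotensin converting enzyme, stood at 769 and 755 TMM CPM in the pair and 2047, 2069, 1975 and 2049.7 TMM CPM in the other 4. *Naaladl1*, a dipeptidase, stood at 90.3 and 86.3 TMM CPM in the pair and 297, 314, 298 and 311 TMM CPM in the other 4. In each case the other 4 were within a narrow band and the pair lay well under it. Of 13 brush border peptidases measured 9 were apart downward and 0 upward, with a median log2 difference of -0.82. The 9 were *Anpep*, *Dpp4*, *Enpep*, *Mep1a*, *Mep1b*, *Naaladl1*, *Xpnpep2*, *Ace* and *Dpep1*, and the list summed to 9866 and 9502 TMM CPM in the pair and 16432 to 17043 TMM CPM in the other 4.

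Transporters of peptides and amino acids followed, with 9 of 15 apart downward, 0 upward and a median log2 difference of -0.75. *Slc43a2*, a carrier of large neutral amino acids, stood at 276 and 263 TMM CPM in the pair and 649, 659, 638 and 658 TMM CPM in the other 4. *Slc36a1*, a proton-coupled amino acid carrier, stood at 34.1 and 30.8 TMM CPM in the pair and 79.5, 80.2, 78.4 and 80.4 TMM CPM in the other 4. *Slc16a10*, an aromatic amino acid carrier, and *Slc7a8*, a subunit of a basolateral exchanger, had log2 differences of -1.17 and -0.99. The list summed to 2749 and 2646 TMM CPM in the pair and 4479 to 4615 TMM CPM in the other 4. By total counts 5 of the peptidases and 3 of the amino acid transporters were still apart downward. The peptidase gene *Tmprss15* (enteropeptidase) was apart upward. Both sums stayed below those of the other 4 without overlap.

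Fewer genes of sugar and fat uptake were lower. *Lct*, which encodes lactase, stood at 806 and 744 TMM CPM in the pair and 2056, 2062, 1998 and 2019.6 TMM CPM in the other 4. *G6pc*, the enzyme that frees glucose from its phosphate, stood at 18.7 and 19.8 TMM CPM in the pair and 44.2, 41.7, 42.7 and 40.1 TMM CPM in the other 4, and these were the only 2 of 14 sugar handling genes apart by TMM. By total counts *Fbp1*, an enzyme of gluconeogenesis, was also apart, upward. *Slc5a4b*, a member of the sodium glucose transporter family that is on no list, was among the widest gaps downward, at 9.67 and 9.07 TMM CPM in the pair and 54.4, 51.8, 52.5 and 53.1 TMM CPM in the other 4. Of 21 genes for fatty acid uptake and chylomicron assembly 6 (28.6%, beside 4.22% of all genes) were apart downward and 0 upward by TMM. By total counts 1 was apart downward (*Cd36*) and 1 upward (the acyl-CoA synthetase gene *Acsl3*). *Cd36*, a fatty acid receptor, stood at 39.1 and 33.7 TMM CPM in the pair and 102, 94.6, 95.3 and 86.1 TMM CPM in the other 4. The fatty acid binding protein gene *Fabp1* (-0.84), the monoacylglycerol acyltransferase gene *Mogat2* (-0.84) and the diacylglycerol acyltransferase gene *Dgat1* (-0.81) had smaller log2 differences and were apart by TMM only, not by total counts. *Apoa4*, a lipoprotein gene of the villus, was not apart, at 9370.4 and 9201 TMM CPM in the pair and 10260.1, 10933, 10084 and 11156 TMM CPM in the other 4.

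Among enzymes of drug metabolism the widest gap downward in the whole comparison outside the V segments, at a mean of at least 10 TMM CPM, belonged to *Cyp2c29*, a cytochrome P450 of the 2C family, at 43.1 and 43.5 TMM CPM in the pair and 339, 329, 343 and 321 TMM CPM in the other 4. The nearest libraries differed by 7.37-fold. Of 23 genes on that list 5 (21.7%, beside 4.22% of all genes) were apart downward and 2 (8.70%, beside 5.96%) upward by TMM. By total counts 3 were apart each way, where 2454 of all 15002 genes were apart upward and 189 downward. Those upward by TMM were *Gstm1* and *Cyp1a1*, a target of the aryl hydrocarbon receptor, at 13.5 and 14.0 TMM CPM in the pair and 3.60, 3.60, 3.63 and 4.05 TMM CPM in the other 4. The alkaline sphingomyelinase gene *Enpp7* (6.42 and 6.06 TMM CPM in the pair, 23.6, 23.9, 20.9 and 22.7 TMM CPM in the other 4) and the carbonic anhydrase gene *Car4* (48.6 and 46.3 TMM CPM in the pair, 157, 154, 154 and 156 TMM CPM in the other 4) were also among the 15 widest gaps downward. Opposite to these, *Cybrd1*, the ferric reductase of iron uptake, stood at 32.4 and 33.0 TMM CPM in the pair and 7.84, 7.92, 7.97 and 6.93 TMM CPM in the other 4. *Ada*, the adenosine deaminase of the villus tip, stood at 2522 and 2419 TMM CPM in the pair and 1132, 1178, 1129.8 and 1189 TMM CPM in the other 4. On a list of 8 genes for villus tip enterocytes it was the only 1 apart by TMM, and the sums overlapped. By total counts 2 of the 8 were apart upward and the sum was higher in the pair. Genes of cholesterol synthesis had 0 of 23 apart by TMM, with a median log2 difference that rounded to 0, and 2 apart upward by total counts.

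**Figure D4:**
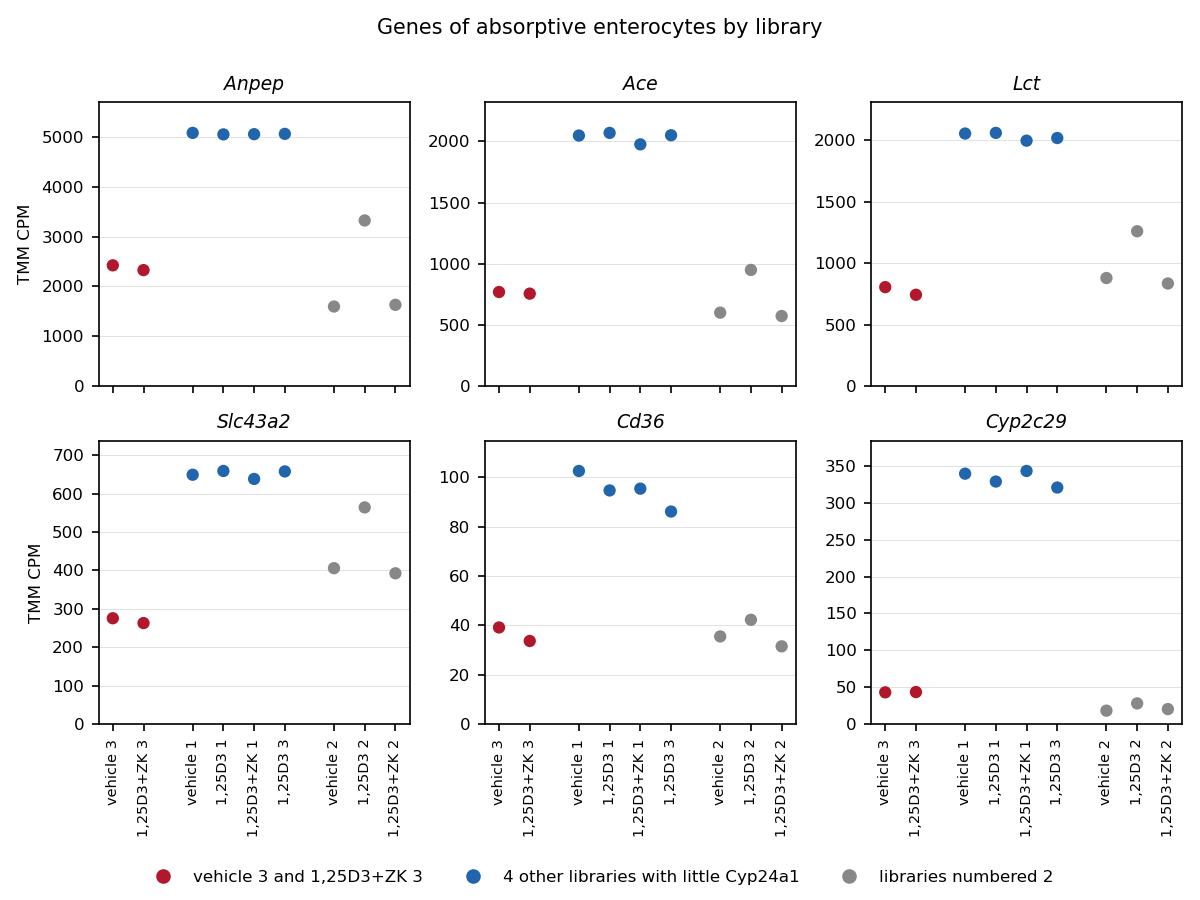
Level of 6 genes of absorptive enterocytes in each of the 9 libraries, in TMM CPM on a linear axis from 0; each point is 1 library. The 6 genes shown were all apart downward, so in every panel the 2 points of the pair lay below all 4 points of the other group. The nearest libraries differed by at least 2.08-fold. On a list of 16 genes for mature enterocytes 4 were apart downward and 12 were not apart by TMM. By total counts 2 of them were apart downward.

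Mitochondrially encoded genes were lower in the pair. Of 19 kept 18 were apart downward, all but *mt-Tm*, which encodes a transfer RNA. On the list 15 of 15 were apart downward by either scaling, with a median log2 difference of -1.45. All transcripts of the mitochondrial genome together took 4.04% and 4.23% of counts in the pair and 7.85% to 9.05% of counts in the other 4. *mt-Nd3* stood at 6.19 and 6.83 TMM CPM in the pair and 36.8, 31.8, 33.2 and 33.3 TMM CPM in the other 4. Transcript length moved with direction as well: the longest annotated transcript had a median of 4486 bases over 682 protein-coding genes apart upward, 1935 bases over 506 apart downward and 3372 bases over all 13655 kept. The part of either measure in the differences above was not tested. Erythroid genes were lower too, 5 of 5 apart downward, as in *Hbb-bs*, a beta globin gene, at 15.5 and 14.2 TMM CPM in the pair and 95.3, 86.3, 92.0 and 88.0 TMM CPM in the other 4.

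Part of the crypt genes and most connective tissue genes were higher in the pair. *Olfm4*, a marker of crypt stem cells (ENSMUSG00000022026, chr14:79984081-80023139), stood at 412 and 389.7 TMM CPM in the pair and 249, 246, 244 and 237 TMM CPM in the other 4, with 1.56-fold between the nearest libraries. Of 18 crypt stem cell genes 4 (22.2%, beside 5.96% of all genes) were apart upward and 0 downward: *Olfm4*, *Slc12a2*, *Rnf43* and *Gkn3*. *Rnf43*, which restrains Wnt signalling, stood at 46.5 and 45.7 TMM CPM in the pair and 23.8 to 25.7 TMM CPM in the other 4, while *Gkn3*, a gastrokine that stomach mucosa also expresses, stood at 38.2 and 35.1 TMM CPM in the pair and 6.72, 8.30, 6.39 and 7.18 TMM CPM in the other 4. Of 25 cell cycle genes 3 (12%, beside 5.96% of all genes) were apart upward, *Mki67*, *Top2a* and *Cenpf*. The other 22 were not apart, and the median log2 difference of the list was 0.11 beside 0.02 over all genes. *Mki67* stood at 69.0 and 68.2 TMM CPM in the pair and 38.5, 36.9, 40.2 and 35.1 TMM CPM in the other 4. Paneth cell genes had 4 of 15 apart upward (26.7%, beside 5.96% of all genes). Among them was the lysozyme gene *Lyz1*, at 3030.2 and 2945 TMM CPM in the pair and 1819.7, 1734, 1868 and 1746 TMM CPM in the other 4.

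Of 20 genes for collagens and fibroblasts 13 were apart upward and 0 downward, with a median log2 difference of 0.85. *Dpt*, the matrix protein dermatopontin, stood at 20.8 and 20.9 TMM CPM in the pair and 7.75, 7.14, 8.68 and 7.71 TMM CPM in the other 4. *Dcn*, the proteoglycan decorin, stood at 48.8 and 46.6 TMM CPM in the pair and 18.3 to 21.4 TMM CPM in the other 4. *Pdgfra*, the receptor that marks fibroblasts, stood at 21.5 and 19.5 TMM CPM in the pair and 9.21, 8.40, 9.39 and 10.0 TMM CPM in the other 4. The 13 collagen genes of the list summed to 475 and 449.8 TMM CPM in the pair and 277 to 295 TMM CPM in the other 4. Smooth muscle ran the other way, with 2 of 12 genes (16.7%, beside 4.22% of all genes) apart downward. These were the intermediate filament gene *Des* (163 and 182 TMM CPM in the pair, 352, 358, 335 and 376 TMM CPM in the other 4) and the actin gene *Actg2* (101 and 95.5 TMM CPM in the pair, 182, 189, 178 and 183 TMM CPM in the other 4). Neither of them was apart by total counts.

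Among antimicrobial genes of the villus bottom 4 of 8 were apart downward and 0 upward. *Reg3b*, a lectin that binds bacteria, stood at 863 and 857 TMM CPM in the pair and 2069, 2005, 2126 and 2017 TMM CPM in the other 4, *Reg3a* at 44.3 and 43.7 TMM CPM in the pair and 133, 128, 138 and 128 TMM CPM in the other 4, and the cytokine gene *Il18* at 117 and 114 TMM CPM in the pair and 272, 253, 288 and 259.9 TMM CPM in the other 4. Of 17 enteroendocrine genes 4 were apart downward (*Cck*, *Sst*, *Gcg* and *Nts*, with *Sst* by TMM only) and 1 upward (*Pyy*). *Nts*, the neurotensin gene, had 20 and 13 reads in the pair and 105, 129, 133 and 100 reads in the other 4. Of 13 goblet cell genes 2 (15.4%, beside 4.22% of all genes) were apart downward by TMM and 11 were not apart. *Muc2*, the main mucin, was apart by TMM only, at 309 and 286 TMM CPM in the pair and 487, 485, 474 and 473 TMM CPM in the other 4. The other, *Retnlb*, was apart under both scalings, at only 0.554 and 0.374 TMM CPM in the pair and 2.43 to 2.73 TMM CPM in the other 4. By total counts 1 goblet cell gene was apart upward and the sums of the list overlapped.

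Genes of the pancreas and of Brunner glands or gastric mucosa were among the widest gaps upward. Of 24 pancreatic acinar genes 21 were apart upward, and they make 13 of the 15 widest gaps among genes with a mean of at least 10 TMM CPM, V segments left out. *Pnlip*, pancreatic lipase, stood at 494 and 493 TMM CPM in the pair and 3.85, 3.89, 4.01 and 4.10 TMM CPM in the other 4. The trypsin gene *Try5* stood at 162 and 156 TMM CPM in the pair and 0.728, 1.01, 0.626 and 0.976 TMM CPM in the other 4. *Tff2*, a trefoil peptide of Brunner glands and gastric mucosa, stood at 112 and 111 TMM CPM in the pair and 2.40, 2.79, 2.96 and 3.66 TMM CPM in the other 4. Without *Zg16*, which goblet cells also express, the acinar list summed to 4152 and 4083 TMM CPM in the pair, 195 to 209 TMM CPM in the other 4, and 45713, 9128 and 43898 TMM CPM in vehicle 2, 1,25D3 2 and 1,25D3 and ZK 2. The list for Brunner gland and gastric mucosa had 3 of 9 genes apart upward (*Tff2*, *Tff1* and *Muc6*) and 1 downward (*Atp4a*). It summed to 130.3 and 128 TMM CPM in the pair and 8.61 to 10.9 TMM CPM in the other 4. Trypsin, elastase and carboxypeptidase genes have close relatives that can share reads, and the part of these transcripts in the differences above was not tested. Transcription factors of regional identity, a list of 14 measured genes, had 0 apart and summed to 1289 and 1268 TMM CPM in the pair and 1245 to 1295 TMM CPM in the other 4.

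Hormone and clock genes showed smaller gaps. Of 9 glucocorticoid response genes 4 were apart upward and 0 downward (*Fkbp5*, *Hsd11b1*, *Zbtb16* and *Dusp1*), with a median log2 difference of 0.55. *Fkbp5*, a chaperone of the glucocorticoid receptor, stood at 98.7 and 94.6 TMM CPM in the pair and 47.8, 46.4, 44.3 and 48.2 TMM CPM in the other 4. Of 19 circadian clock genes 3 were apart upward (15.8%, beside 5.96% of all genes) and 1 downward (5.26%, beside 4.22%) by TMM. By total counts 7 were apart upward and 0 downward, beside 2454 upward and 189 downward of all 15002 genes. *Per2* stood at 30.8 and 30.4 TMM CPM in the pair and 15.9, 18.4, 15.9 and 16.3 TMM CPM in the other 4. *Hlf*, the one downward by TMM, stood at 13.9 and 15.1 TMM CPM in the pair and 27.2, 26.5, 25.3 and 28.8 TMM CPM in the other 4. Of 28 interferon-stimulated genes 5 (17.9%, beside 5.96% of all genes) were apart upward and 0 downward. *Ifit1*, which binds foreign RNA, stood at 60.0 and 60.2 TMM CPM in the pair and 28.1, 26.5, 28.5 and 25.7 TMM CPM in the other 4. By TMM, unfolded protein response genes had 1 of 19 apart, *Asns*, downward (5.26%, beside 4.22% of all genes), and heat shock protein genes had 0 of 9. Over all 48 lists, 19 sums were higher in the pair and 25 lower without overlap, and 4 overlapped, by TMM. By total counts 33 sums were higher, 12 lower and 3 overlapped. The change took in 10 sums that were lower by TMM and higher by total counts, among them those for enteroendocrine cells, drug metabolism, cholesterol synthesis, the unfolded protein response and heat shock proteins.

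**Figure D5:**
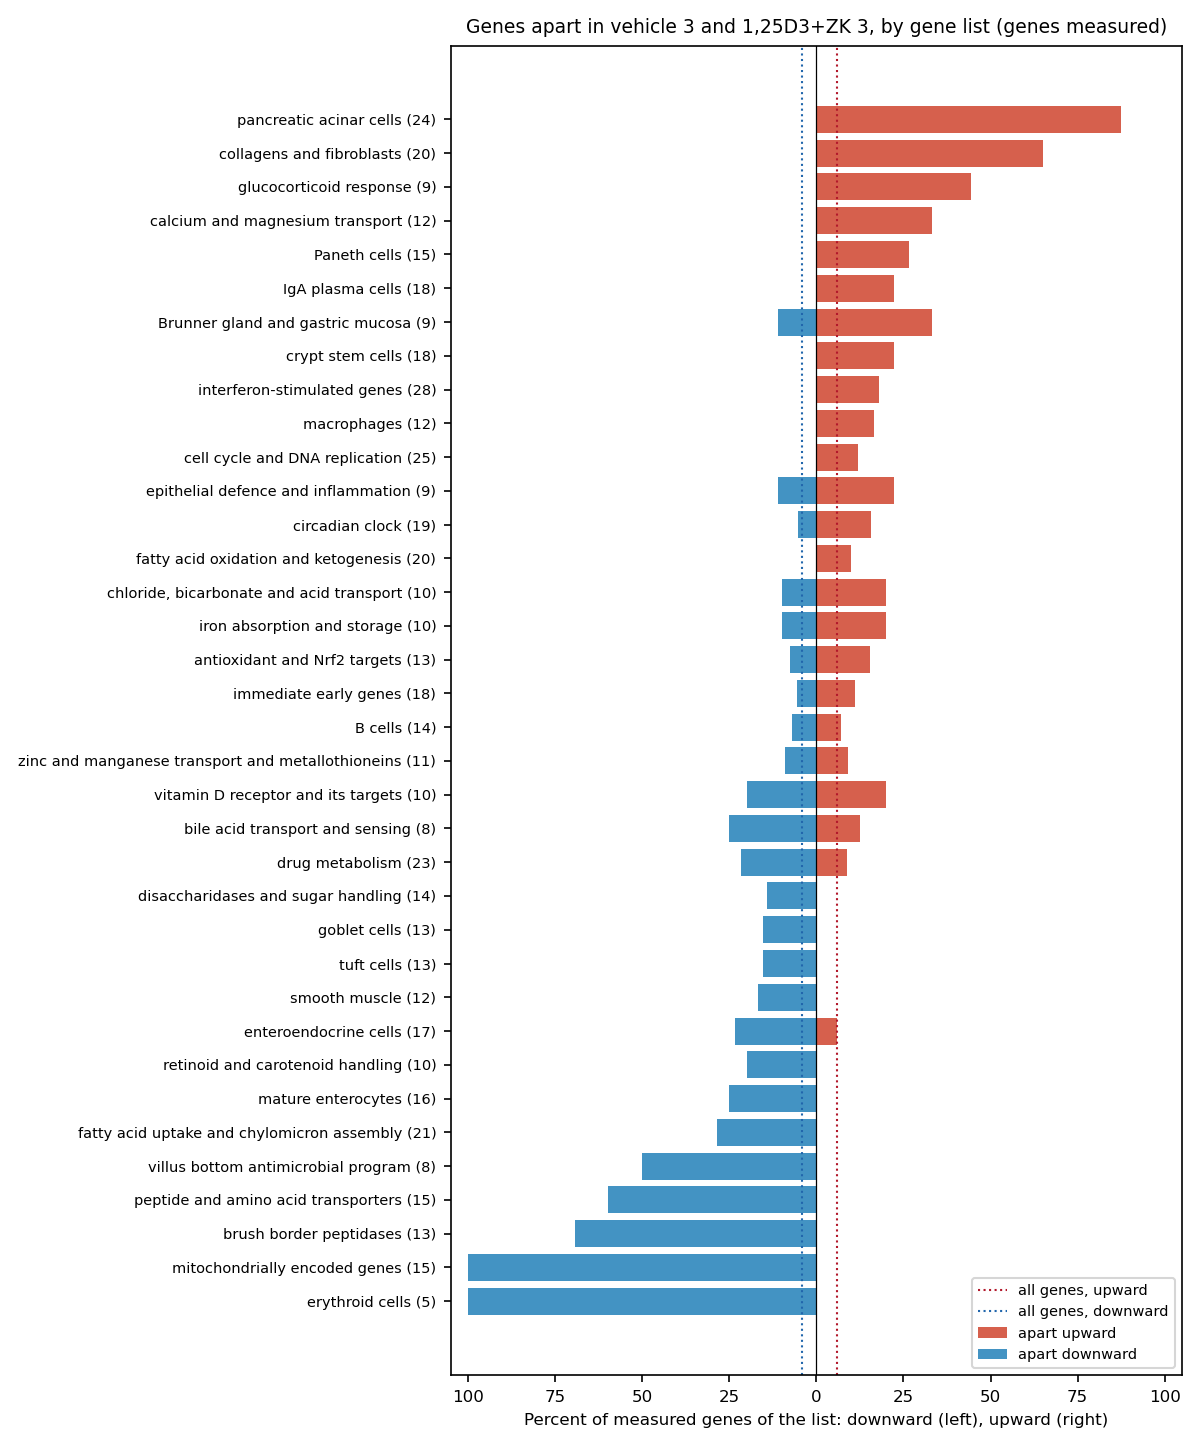
Share of the measured genes of each list that were apart upward (right) or downward (left) in the pair, for lists with at least 5 measured genes and at least 2 apart; dotted lines mark the 5.96% upward and 4.22% downward over all genes. Pancreatic, fibroblast, glucocorticoid, calcium transport and Brunner gland lists lay furthest to the right, and erythroid, mitochondrial, peptidase and amino acid transporter lists furthest to the left.

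The 2 libraries of the pair carry different treatment labels, so 1,25D3 and ZK 3 was also set against vehicle 3, with 1 library on each side and thus no test. Over all genes kept 636 differed by more than 1.5-fold (4.24%), most of them at low levels, and of 7934 genes with a mean of at least 10 TMM CPM 21 did. All 21 were higher in 1,25D3 and ZK 3. *Jund*, a member of the AP-1 family, stood at 74.3 TMM CPM in 1,25D3 and ZK 3 and 36.6 TMM CPM in vehicle 3, and *Cox8a*, a subunit of cytochrome oxidase, at 396 TMM CPM in 1,25D3 and ZK 3 and 238 TMM CPM in vehicle 3. The 18 protein-coding genes among them had a median transcript of 1134 bases with a GC content of 59.2%, beside 3376 bases and 49.8% over the 7757 protein-coding genes at such levels. Of the genes apart between the pair and the other 4 with a mean of at least 10 TMM CPM, 14 of 684 were among the 21. *S100g* and *Atp2b1* were not, with log2 differences of 1,25D3 and ZK 3 over vehicle 3 of 0.09 and -0.03.

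The treatment labels were also compared, although each of these labels holds 1 library of the pair. With the quasi-likelihood test of edgeR on all 9 libraries, 1,25D3 and ZK against vehicle called 0 genes (0%), where a call needed an adjusted p below 0.05 and a log2 fold change beyond 0.58 either way. At an unadjusted p under 0.05 there were 24 genes in edgeR, 7 in DESeq2 and 31 in limma voom, each of which also called 0. The 24 genes are 0.16% of all genes, fewer than this threshold gives where labels do not differ. For *S100g* the fitted log2 fold change of 1,25D3 and ZK over vehicle was 0.01, for *Atp2b1* -0.03, for *Igha* -0.04, for *Olfm4* -0.07 and for *Anpep* -0.01. With 1 library of the pair in each label, the spread within a label holds the whole difference between the pair and the other 4. A low p was thus barred for the genes apart by the way they were chosen. A fitted fold near 0 was largely set by the same choice, and 1512 of the 1527 genes apart lay under 0.58 log2 either way. No p and no fold is read for them. Each label has 3 mice, and the labels themselves are in doubt.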

How the data were processed

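Reads of 50 bases from a stranded poly(A) kit had been aligned by the authors to mm10 with Tophat and Bowtie2 after base calling with bcl2fastq 2.17.1.14, and reads with a unique position were counted per gene with HTSeq. The deposited table gives raw counts of 48709 Ensembl genes per library, and its digit headers were matched to the sample descriptions. How strand was set and which annotation was used are not given in the sources used here.

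From these counts, genes above 100 reads over the 9 libraries were scaled by TMM (edgeR 4.0.16, R 4.3.3), and symbols and positions came from GENCODE M21 (48349 genes matched). The pair and the other 4 libraries were described without a test. The 1,25D3 and ZK label was tested against the vehicle label with edgeR's quasi-likelihood test on all 9 libraries (Benjamini-Hochberg adjusted p under 0.05, absolute log2 fold change over 0.58). Deviations from the label means of the vehicle and the 1,25D3 and ZK library of the same number correlated at 0.87, 0.92 and 0.82. For number 3 these are the pair, which was chosen for its likeness, and libraries labelled 1,25D3 were left out. The library 1,25D3 3 had a mean chi-square of 173 and 171 against the pair and 4.94, 2.00 and 5.41 against vehicle 1, 1,25D3 1 and 1,25D3 and ZK 1. The number thus did not pair all libraries. The fit whose values are given has no block, and the fit with the number as a block is an alternative. The scripts were tested on simulated data.

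The libraries, gene lists and named genes were chosen with earlier results of these data known. Named genes were the markers and VDR genes, the 15 widest gaps each way at a mean of at least 10 TMM CPM without V, D or J segments, and up to 4 apart genes per list (the 2 of highest mean where fewer than 2 were apart). *Macf1*, *Setd5*, *Jund*, *Cox8a*, the single V segments and the genes of the closing observations were named after their values were seen. Alternatives were DESeq2 1.42.0 and its size factors, limma 3.58.1 voom, total counts, other filters and folds, a replicate block and each library left out. Comparison columns made by the authors were not used here. Mice were separate animals according to the study, and p-values measure only the spread between these libraries.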

Additional observations from a re-analysis of the deposited data

Results flagged for a closer look

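In 146 groups of 4 values, the 48 list sums and 98 genes named in the text over the other 4 libraries, 5 had 1 library far from the remaining 3, where chance gives about 1 in 20. *Cybrd1* stood at 6.93 TMM CPM in 1,25D3 3 and 7.84 to 7.97 TMM CPM in the rest of the other 4. *Cyp1a1* stood at 4.05 TMM CPM in 1,25D3 3 and 3.60 to 3.63 TMM CPM in the rest. *Per2* stood at 18.4 TMM CPM in 1,25D3 1 and 15.9 to 16.3 TMM CPM in the rest. *Retnlb* stood at 2.73 TMM CPM in 1,25D3 3 and 2.43 to 2.48 TMM CPM in the rest. *Slc16a10* stood at 195 TMM CPM in vehicle 1 and 183 to 184 TMM CPM in the rest. Each of these gaps among the other 4 was smaller than the distance of the pair from all of them.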

How the results depend on the processing

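Size factors of DESeq2 left 866 genes apart upward and 669 downward. Total counts gave 2454 and 189, and total counts without mitochondrially encoded genes, a choice made after seeing the data, gave 2044 and 224. Without the filter on reads 1634 were apart upward and 810 downward, and with a mean of at least 10 TMM CPM 242 upward and 442 downward. With 2-fold between the nearest libraries 334 and 153 were apart, and with no minimum fold 5080 and 4988. Against 1,25D3 3 alone, the library of the same number, 2030 genes were apart upward and 1288 downward, and against the 3 libraries numbered 1 alone 1021 and 676, both chosen after seeing the data. Leaving out each of the 6 libraries in turn gave 1019 to 1167 upward and 676 to 1021 downward, and the highest downward count came without 1,25D3 and ZK 3. Fewer libraries make the rule easier to meet. Between 1,25D3 and ZK 3 and vehicle 3, the count of 636 was 21 at a mean of at least 10 TMM CPM, 160 at 2-fold and 641 with size factors.

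The test of 1,25D3 and ZK against vehicle called 0 genes under every alternative run, which includes the replicate block in all 9 libraries (91 genes at an unadjusted p under 0.05), the replicate block in the 4 libraries numbered 1 or 3 (1089 genes) and each of the 6 libraries of these labels left out (15 to 57 genes). The replicate block thus changed no call. Log2 differences of the 48 list sums and 98 genes changed sign in no case under size factors or with a library left out where the groups did not overlap. Total counts turned 10 of the 48 list sums from lower to higher in the pair without overlap, and of 160 genes that the naming rule gives 9 changed sign, 0 of which were apart under either scaling.

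The pair has 2 libraries, which limits every statement to these animals. Genes with few reads, such as *Trpv6*, carry counting error that the 1.5-fold rule does not weigh.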

Other observations

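Several genes outside the lists had wide gaps and were chosen after their values were seen. *Cubn* and *Amn* encode the 2 subunits of the receptor complex that takes up vitamin B12 bound to intrinsic factor. *Cubn* stood at 27.5 and 27.2 TMM CPM in the pair and 72.4, 65.5, 72.4 and 65.5 TMM CPM in the other 4, and *Amn* at 29.1 and 40.5 TMM CPM in the pair and 92.5, 94.5, 90.3 and 97.2 TMM CPM in the other 4. *Ugt2b38*, a glucuronosyltransferase, stood at 62.1 and 61.8 TMM CPM in the pair and 3.30, 3.67, 2.55 and 2.73 TMM CPM in the other 4. *Neat1*, a long RNA kept in the nucleus, stood at 136 and 136 TMM CPM in the pair and 25.1, 26.2, 29.4 and 27.4 TMM CPM in the other 4. In vehicle 2, 1,25D3 2 and 1,25D3 and ZK 2, *Ugt2b38* stood at 55.8, 43.1 and 55.1 TMM CPM and *Cubn* at 8.72, 17.0 and 9.62 TMM CPM.

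*Gm23935* and *Gm26917*, both non-coding genes of no stated function here, were among the widest gaps downward and differed within the pair. *Gm23935* stood at 7.80 TMM CPM in vehicle 3, 63.4 TMM CPM in 1,25D3 and ZK 3 and 233 to 371 TMM CPM in the other 4. *Gm26917* stood at 22.2 TMM CPM in vehicle 3, 35.5 TMM CPM in 1,25D3 and ZK 3 and 168 to 194 TMM CPM in the other 4.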
